A study of Homo sapiens with 6 samples.

Results

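The FGF and ERK feedback genes are 10 human transcripts that start the fibroblast growth factor (FGF) signal, read it out or dampen it: the ligand FGF2, the receptor FGFR1, the ETS transcription factors ETV1, ETV4 and ETV5, the phosphatases DUSP4 and DUSP6, and the sprouty inhibitors SPRY1, SPRY2 and SPRY4. They were chosen by gene symbol, and all 10 had a row among the 17929 genes of the expression table and passed the filter on low values. They were followed after depletion of DDX18, a DEAD-box RNA helicase, in the human embryonic stem cell lines HES2 and H9. The depleted cells were infected with virus carrying a short hairpin RNA against DDX18, shDDX18#1 or shDDX18#3, and the control cells with virus carrying shLuc, a hairpin named for luciferase. All groups were grown on irradiated mouse embryonic fibroblast feeders in medium with knockout serum and bFGF, the protein that FGF2 encodes, and were collected on day 4. There was 1 library for each line and hairpin, so 4 knockdown libraries were set against 2 shLuc libraries. Separate cultures are not named in the labels. The p-values therefore reflect only how far these 6 samples spread, which may in part be technical.

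FGF ligands bind receptor tyrosine kinases at the cell surface, which pass the signal through RAS, RAF and MEK to the kinase ERK. Active ERK switches on transcripts such as the ETV factors, and also the dual-specificity phosphatases and sprouty proteins that damp the cascade, so that levels of these transcripts are widely used as readouts of it. Human embryonic stem cells are kept undifferentiated in medium with FGF2, whereas in mouse embryonic stem cells the same pathway promotes the exit from pluripotency. Only RNA was measured here, so neither protein levels nor ERK phosphorylation are known.

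DDX18 itself was at 24.5% and 37.6% of the HES2 shLuc level in the HES2 libraries with shDDX18#1 and shDDX18#3, and at 12.6% and 31.0% of the H9 shLuc level in the corresponding H9 libraries. The libraries held 2668179 to 4271741 reads, and 1 read was worth 0.224 to 0.408 CPM (counts per 1000000 reads of the scaled library). The members' counts ran between 27 reads (SPRY1 in H9 shDDX18#1) and 2630 reads (FGFR1 in HES2 shLuc). Of 14 stem cell markers, all were measured and summed to 0.581% and 0.557% of the reads in the HES2 knockdown libraries and 0.428% and 0.565% in the H9 knockdown libraries, against 0.715% in HES2 shLuc and 0.814% in H9 shLuc. PODXL, above shLuc of its line in each knockdown library, weighed heavily in these sums. With shDDX18#1 it was at 2930 of 5544 CPM in HES2 and 2502 of 4662 CPM in H9. In shLuc it was at 1237 of 6832 CPM in HES2 and 2143 of 8218 CPM in H9. In both knockdown libraries 12 of the 14 markers were below shLuc in HES2 and 13 in H9, so the sums understate their fall. POU5F1, a defining stem cell factor, was at 0.322 to 3.58 CPM in all 6 libraries, but how reads shared with its near-identical pseudogenes were counted is not given in the sources used here, so its level is uncertain. The fibroblast and feeder markers, of which 23 were tested, summed to 0.674% and 0.561% of the reads in the HES2 knockdown libraries and 4.28% and 1.66% in the H9 knockdown libraries, against 0.185% in HES2 shLuc and 0.380% in H9 shLuc. In these bulk samples fewer cells of a type and less RNA per cell cannot be told apart. The feeders were mouse cells. Whether reads from them were counted under human genes, be it these markers or the feedback genes, was not tested.

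After depletion of DDX18, DUSP4, DUSP6 and ETV5 rose, ETV1 fell, and the other 6 did not pass the test. Among all 17768 genes tested, 9.60% rose and 6.26% fell in this comparison. The median log2 change of the 10 genes was -0.11, beside -0.02 over all genes tested. A gene was called when its adjusted p in limma was under 0.05, with Benjamini-Hochberg adjustment over all genes and the cell line as a block, and the log2 changes from limma are on the log2(CPM + 1) scale, which understates the change of low genes.

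**Figure D1:**
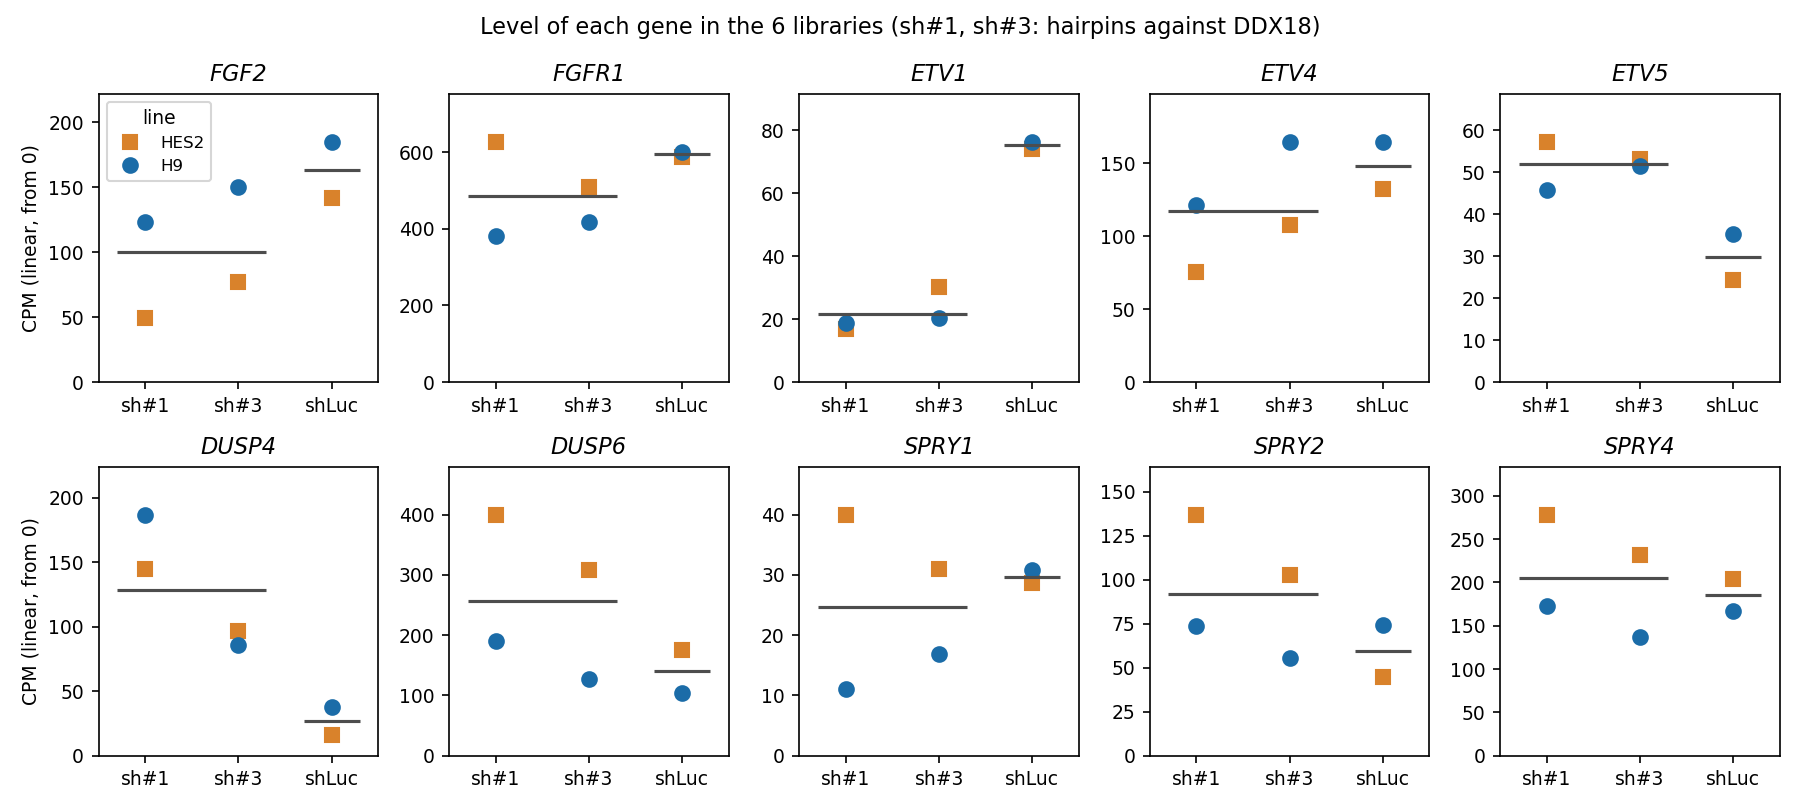
Level of each of the 10 genes in every library, in CPM on a linear axis from 0. Squares are HES2 and circles are H9, and the horizontal lines are the means of the 4 knockdown libraries and of the 2 shLuc libraries. All 4 knockdown points lie below both shLuc points for ETV1 and above both for ETV5 and DUSP4.

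FGF2, the ligand, was measured at 49.2 CPM with shDDX18#1 and 77.1 CPM with shDDX18#3 in HES2, and at 123 and 150.1 CPM with the same hairpins in H9, against 142 CPM in HES2 shLuc and 185 CPM in H9 shLuc. Each knockdown library was below shLuc of its own line, but H9 shDDX18#3 was above HES2 shLuc, so the groups overlapped. The mean was 99.9 ± 45.3 CPM in knockdown libraries (SD, n = 4) and 163 ± 30.7 CPM in shLuc libraries (SD, n = 2). The log2 change of -0.81 (SE 0.24, 95% interval -1.35 to -0.27) missed the threshold, with an adjusted p of 0.0519 in limma. In HES2 34.8% and 54.5% of the shLuc level was left with shDDX18#1 and shDDX18#3, and in H9 66.7% and 81.2%. FGF2 lies at chr4:122826708-122898236 on the plus strand of GRCh38, and 804 of its exon bases, 11.9%, are shared with NUDT6 on the opposite strand. The kit named in the labels does not mark strand, so reads from the shared bases cannot be told apart. NUDT6, a nudix hydrolase gene, had a log2 change of -0.43 and did not pass the test (adjusted p = 0.263 in limma).

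FGFR1, the receptor kinase through which FGF2 signals in many cell types, was at 627 and 510.2 CPM with shDDX18#1 and shDDX18#3 in HES2 and at 382 and 418 CPM in H9, against 588 CPM in HES2 shLuc and 600.0 CPM in H9 shLuc. Only HES2 shDDX18#1 was above shLuc of its line, and both H9 knockdown libraries were the lowest of the 6. The mean was 484 ± 109.6 CPM in knockdown libraries (SD, n = 4) and 594 ± 8.48 CPM in shLuc libraries (SD, n = 2). The log2 change was -0.32 (SE 0.18, 95% interval -0.73 to 0.09, adjusted p = 0.244 in limma). On levels divided by exon length, FGFR1 made up 57.9% and 58.8% of the summed FGFR1 to FGFR4 transcripts in the HES2 knockdown libraries and 50.1% and 53.4% in the H9 ones, against 59.5% in HES2 shLuc and 54.2% in H9 shLuc. It was the most abundant of the 4 receptors in every library.

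ETV1, at chr7:13891228-13991425 on the minus strand of GRCh38, is one of 3 closely related ETS transcription factors, with ETV4 and ETV5, that FGF signals switch on in many tissues. In human cells the repressor capicua holds this group down until ERK relieves it, and capicua binds octamers such as TGAATGAA and TGAATGGA. The ETV1 promoter is shown because ETV1 was the member that fell, and the DUSP6 promoter because DUSP6 rose. Both are RefSeq sequences of GRCh38.p14, written 5′ to 3′ along the gene, with 250 bases before and 50 after a transcription start. The ETV1 window is chr7:13991376-13991675 on the minus strand and the DUSP6 window is chr12:89352452-89352751 on the minus strand. Capitals mark a match on either strand to the octamers above, TGANTCA (AP-1), CCGGAAGT (ETS) or TGACGTCA (cyclic AMP response element), none of which overlapped another here. The GC box, GGGCGG, was also searched but is not marked.
ETV1: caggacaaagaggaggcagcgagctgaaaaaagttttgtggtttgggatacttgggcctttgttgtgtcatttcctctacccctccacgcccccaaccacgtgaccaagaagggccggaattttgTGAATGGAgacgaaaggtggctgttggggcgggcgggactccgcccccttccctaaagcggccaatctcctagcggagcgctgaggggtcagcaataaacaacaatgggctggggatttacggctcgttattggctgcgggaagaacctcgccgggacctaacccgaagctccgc
DUSP6: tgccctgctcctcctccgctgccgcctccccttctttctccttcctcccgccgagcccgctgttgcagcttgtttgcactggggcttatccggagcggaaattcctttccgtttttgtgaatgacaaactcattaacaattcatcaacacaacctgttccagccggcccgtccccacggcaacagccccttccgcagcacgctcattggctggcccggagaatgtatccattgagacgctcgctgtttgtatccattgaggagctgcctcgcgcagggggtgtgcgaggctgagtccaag
The ETV1 window holds 1 marked match, TGAATGGA, which 1.03% of 35116 promoter windows of this length hold. The GC box had 3 matches in the ETV1 window and 0 in the DUSP6 window, and 45.0% of all windows hold it. The DUSP6 window holds no match to any of the motifs. Over all windows the shares are 1.65% for TGAATGAA, 7.71% for TGANTCA, 4.14% for CCGGAAGT and 1.85% for TGACGTCA. A promoter window was matched by symbol for 6 of the 10 genes, and a match describes the letters only.

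ETV1 was at 16.7 CPM with shDDX18#1 and 30.4 CPM with shDDX18#3 in HES2, and at 18.8 and 20.4 CPM in H9, against 74.2 CPM in HES2 shLuc and 76.4 CPM in H9 shLuc. All 4 knockdown libraries were below both shLuc libraries, a pattern held by 1 of the 10 genes and by 20.9% of all genes tested. Knockdown libraries averaged 21.6 ± 6.04 CPM (SD, n = 4) and shLuc libraries 75.3 ± 1.55 CPM (SD, n = 2). ETV1 fell by 1.79 on the log2 scale (SE 0.24, 95% interval -2.35 to -1.23, adjusted p = 0.0047 in limma). Without H9 shLuc the adjusted p was 0.0719 and without HES2 shLuc 0.0699, so with a single control library left the gene was not called.

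ETV4 was at 75.6 and 107 CPM with shDDX18#1 and shDDX18#3 in HES2 and at 122 and 165 CPM in H9, against 132 CPM in HES2 shLuc and 164 CPM in H9 shLuc. H9 shDDX18#3 matched its control to within 1 CPM, and the other 3 knockdown libraries were below theirs. Its log2 change of -0.38 (SE 0.20, 95% interval -0.84 to 0.08) did not pass the test (adjusted p = 0.221 in limma).

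ETV5, at chr3:186046308-186110318 on the minus strand of GRCh38, moved in the other direction. It was at 57.3 and 53.2 CPM with shDDX18#1 and shDDX18#3 in HES2 and at 45.7 and 51.5 CPM in H9, against 24.4 CPM in HES2 shLuc and 35.2 CPM in H9 shLuc. All 4 knockdown libraries were above both shLuc libraries, as they also were for DUSP4, which makes 2 of the 10 genes, beside 19.8% of all genes tested. The mean was 51.9 ± 4.78 CPM in knockdown libraries (SD, n = 4) and 29.8 ± 7.63 CPM in shLuc libraries (SD, n = 2). ETV5 rose by 0.80 on the log2 scale (SE 0.20, 95% interval 0.35 to 1.25, adjusted p = 0.0319 in limma). The call was lost without HES2 shDDX18#1 (adjusted p = 0.0990 in limma), HES2 shDDX18#3 (0.0845), H9 shLuc (0.0555) or HES2 shLuc (0.296, with a log2 change of 0.45), and also without a mean-variance trend (0.0788).

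The opposite changes of ETV1 and ETV5 altered the make-up of the group on levels divided by exon length. ETV1 made up 5.34% and 7.49% of the summed transcripts of the 3 factors with shDDX18#1 and shDDX18#3 in HES2, and 4.48% and 3.74% in H9, against 15.9% in HES2 shLuc and 13.3% in H9 shLuc. ETV5 made up 30.3% and 21.8% in the HES2 knockdown libraries and 18.1% and 15.7% in the H9 ones, against 8.64% in HES2 shLuc and 10.2% in H9 shLuc. ETV4 was the most abundant of the 3 in all 6 libraries, with a share between 64.4% (HES2 shDDX18#1) and 80.6% (H9 shDDX18#3). In every knockdown library ETV5 exceeded ETV1 per exon base, and in both shLuc libraries ETV1 exceeded ETV5.

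**Figure D2:**
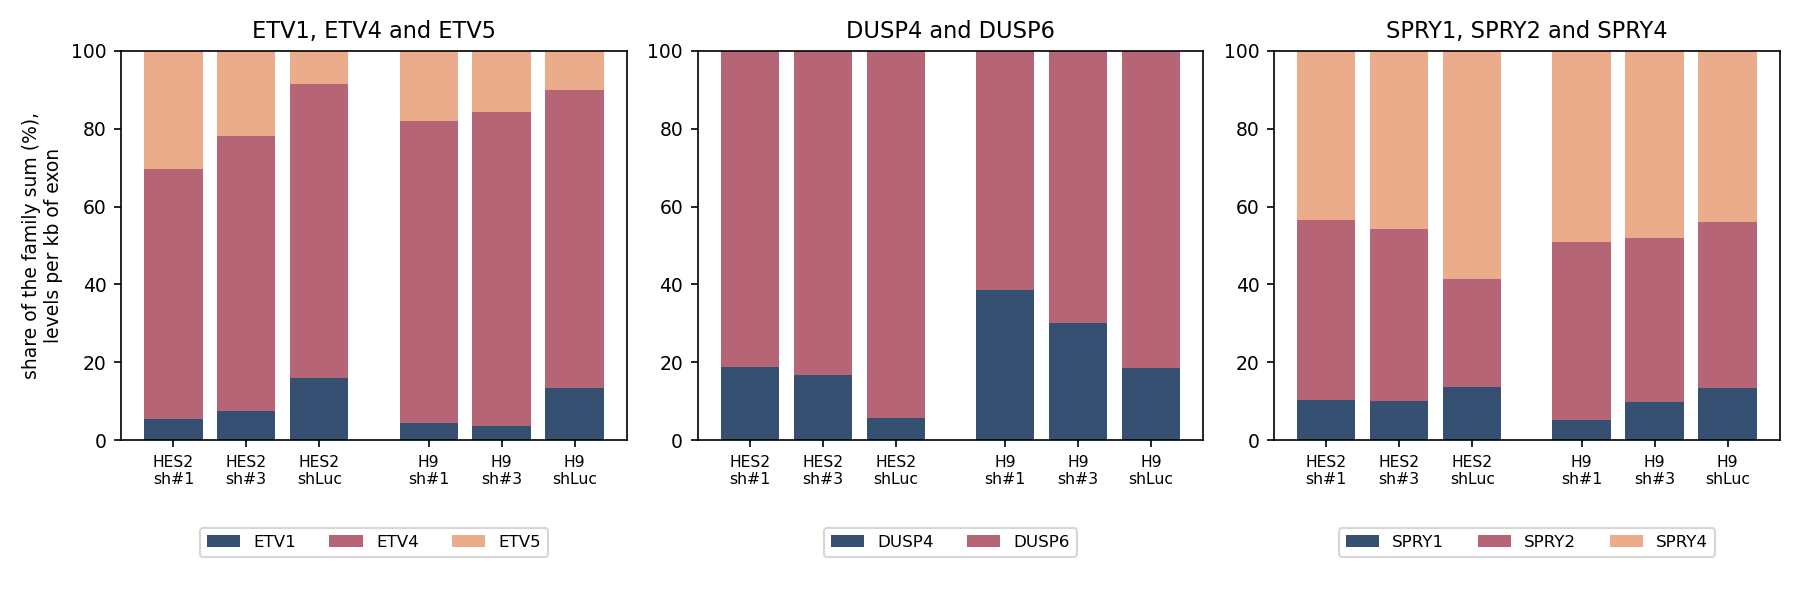
Share of each gene in the sum of its family (%), on CPM divided by exon length in kb, for the 6 libraries. The dark bottom segment is ETV1, DUSP4 or SPRY1. The ETV1 segment is 3.74% to 7.49% in knockdown libraries and 13.3% to 15.9% in shLuc libraries, while the DUSP4 segment is higher in each knockdown library than in shLuc of its line.

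DUSP4, a nuclear phosphatase that inactivates ERK and related kinases, had the largest change of the 10 genes. It was at 145 CPM with shDDX18#1 and 96.6 CPM with shDDX18#3 in HES2, and at 187 and 85.6 CPM in H9, against 16.3 CPM in HES2 shLuc and 37.4 CPM in H9 shLuc. The lowest knockdown library stood well above the higher shLuc library. The mean was 128 ± 46.6 CPM in knockdown libraries (SD, n = 4) and 26.8 ± 14.9 CPM in shLuc libraries (SD, n = 2). DUSP4 rose by 2.26 on the log2 scale (SE 0.35, 95% interval 1.45 to 3.07, adjusted p = 0.0077 in limma). Without HES2 shLuc, the library with the lowest value, the log2 change was 1.73 and the adjusted p 0.116, and the gene was called when any other single library was left out. As ratios of CPM, the HES2 level was 8.87 and 5.92 times that of shLuc with shDDX18#1 and shDDX18#3, and in H9 4.99 and 2.29 times. Of the 23 fibroblast and feeder markers tested, 15 were above shLuc in both HES2 knockdown libraries and 2 below it in both, and in H9 20 were above and 0 below. The same counts were not made over all genes, so these have no background beside them and give directions only. In HES2, 1 and 2 of these markers were at 0 with shDDX18#1 and shDDX18#3 and 2 in shLuc, and in H9 none was. Their summed share of reads, given above, was higher in each knockdown library than in shLuc of its line, as DUSP4 was, and its part in the rise of DUSP4 was not tested.

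DUSP6, a cytoplasmic phosphatase selective for ERK, was at 399 and 309 CPM with shDDX18#1 and shDDX18#3 in HES2 and at 189.9 and 127 CPM in H9, against 176 CPM in HES2 shLuc and 105 CPM in H9 shLuc. Every knockdown library was above shLuc of its own line, but H9 shDDX18#3 was below HES2 shLuc, so the groups overlapped. The mean was 256 ± 121 CPM in knockdown libraries (SD, n = 4) and 140.4 ± 50.6 CPM in shLuc libraries (SD, n = 2). DUSP6 rose by 0.78 on the log2 scale (SE 0.21, 95% interval 0.31 to 1.25, adjusted p = 0.0396 in limma). The call needed the cell line as a block, since without it the adjusted p was 0.286. It was also lost without H9 shDDX18#1 (adjusted p = 0.0533 in limma), HES2 shDDX18#1 (0.106), HES2 shDDX18#3 (0.0735), H9 shLuc (0.142) or HES2 shLuc (0.311), and without a mean-variance trend (0.104). DUSP6 lies at chr12:89347232-89353271 on the minus strand of GRCh38, and 1875 of its exon bases, 40.5%, are shared with the antisense gene AC024909.2. That gene was at 124 and 104 CPM with shDDX18#1 and shDDX18#3 in HES2 and at 60.0 and 41.8 CPM in H9, against 70.9 CPM in HES2 shLuc and 33.8 CPM in H9 shLuc. Its order across the 6 libraries was that of DUSP6 but for H9 shDDX18#1 and HES2 shLuc, which changed places, and without strand the reads of the pair cannot be told apart.

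The phosphatases together were at 106 and 80.0 CPM per kb of exon with shDDX18#1 and shDDX18#3 in HES2 and at 66.7 and 39.3 CPM per kb in H9, against 40.3 CPM per kb in HES2 shLuc and 27.7 CPM per kb in H9 shLuc. DUSP4 contributed 18.8% and 16.6% of that sum in the HES2 knockdown libraries and 38.5% and 30.0% in the H9 ones, against 5.58% in HES2 shLuc and 18.6% in H9 shLuc. DUSP6 stayed the more abundant of the pair in every library.

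The sprouty genes, which encode inhibitors of signalling between the receptors and RAF, gave no call. SPRY1 was at 39.9 and 30.9 CPM with shDDX18#1 and shDDX18#3 in HES2 and at 11.0 and 16.9 CPM in H9, against 28.6 CPM in HES2 shLuc and 30.7 CPM in H9 shLuc. SPRY2 was at 137 and 102 CPM with shDDX18#1 and shDDX18#3 in HES2 and at 73.9 and 55.4 CPM in H9, against 44.9 CPM in HES2 shLuc and 74.5 CPM in H9 shLuc. For both genes each HES2 knockdown library was above shLuc of its line and each H9 knockdown library below it, although SPRY2 in H9 shDDX18#1 was within 1 CPM of its control. SPRY4 was at 278 and 231 CPM with shDDX18#1 and shDDX18#3 in HES2 and at 172 and 137 CPM in H9, against 204 CPM in HES2 shLuc and 167 CPM in H9 shLuc. Its knockdown libraries surrounded the shLuc libraries, with 3 above their own control and H9 shDDX18#3 below.

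Over both lines the log2 change was -0.41 for SPRY1 (SE 0.33, adjusted p = 0.421 in limma), 0.58 for SPRY2 (SE 0.33, adjusted p = 0.259) and 0.10 for SPRY4 (SE 0.17, adjusted p = 0.723). Leaving out H9 shLuc turned the sign for SPRY1, to 0.29, and leaving out HES2 shLuc turned it for SPRY2, to -0.22, and for SPRY4, to -0.11. On levels per exon base, SPRY4 and SPRY2 made up nearly all sprouty transcripts, and SPRY1 contributed between 5.21% (H9 shDDX18#1) and 13.6% (HES2 shLuc).

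**Figure D3:**
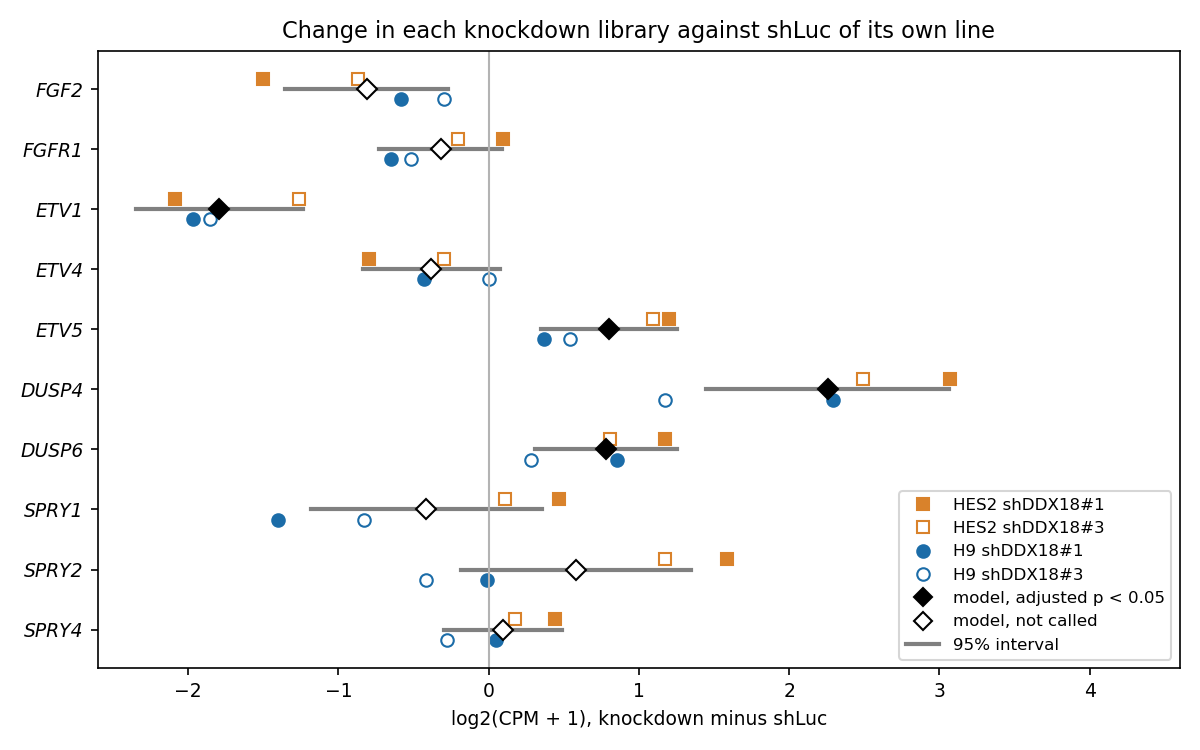
Difference in log2(CPM + 1) between each knockdown library and shLuc of its own line, for the 10 genes. Squares are HES2 and circles H9, filled for shDDX18#1 and open for shDDX18#3; diamonds with bars are the fitted change and its 95% interval, filled where the gene was called. The 4 points lie on one side of 0 for FGF2, ETV1, ETV5, DUSP4 and DUSP6, while SPRY1 and SPRY2 have the HES2 points right of 0 and the H9 points left of it.

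Ordered by level per exon base, the knockdown libraries ran DUSP6 (55.3 ± 26.2 CPM per kb, SD, n = 4), FGFR1 (35.0 ± 7.92), ETV4 (32.6 ± 10.3), SPRY4 (31.2 ± 9.47), SPRY2 (30.3 ± 11.7), DUSP4 (17.7 ± 6.42), FGF2 (14.8 ± 6.68), ETV5 (8.95 ± 0.82), SPRY1 (6.23 ± 3.32) and ETV1 (2.24 ± 0.63). The shLuc libraries ran FGFR1 (42.9 ± 0.61 CPM per kb, SD, n = 2), ETV4 (41.1 ± 6.29), DUSP6 (30.3 ± 10.9), SPRY4 (28.2 ± 4.03), FGF2 (24.1 ± 4.53), SPRY2 (19.7 ± 6.88), ETV1 (7.83 ± 0.16), SPRY1 (7.49 ± 0.38), ETV5 (5.13 ± 1.32) and DUSP4 (3.70 ± 2.05). DUSP4 thus stood sixth in knockdown and last in shLuc libraries, and ETV1 last in knockdown and seventh in shLuc libraries. The ranges of mean ± SD of neighbours in the order overlapped, except those of SPRY1 and ETV1 in knockdown libraries, and SPRY2 and ETV1, and SPRY1 and ETV5, in shLuc libraries.

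Taken one hairpin at a time, more members were called with shDDX18#1, with which DDX18 was lower in both lines. With shDDX18#1, DUSP4 rose by 2.68 on the log2 scale (adjusted p = 0.0004 in limma), DUSP6 by 1.01 (adjusted p = 0.0025) and ETV5 by 0.79 (adjusted p = 0.0299), while ETV1 fell by 2.03 (adjusted p = 0.0006), FGF2 fell by 1.04 (adjusted p = 0.0079) and ETV4 fell by 0.62 (adjusted p = 0.0173). Among all genes 14.4% rose and 13.4% fell with that hairpin. With shDDX18#3, DUSP4 rose by 1.83 (adjusted p = 0.0053 in limma) and ETV1 fell by 1.56 (adjusted p = 0.0045), while 6.96% of all genes rose and 3.69% fell. The values of the other genes called with shDDX18#1 were 0.82 for ETV5 (adjusted p = 0.0502 in limma), 0.54 for DUSP6 (adjusted p = 0.0628), -0.58 for FGF2 (adjusted p = 0.117) and -0.15 for ETV4 (adjusted p = 0.581) with shDDX18#3. Both hairpin comparisons use the same shLuc libraries, so their likeness is not independent.

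Of these calls, those of ETV1 and DUSP4 with shDDX18#1 held under each of the 18 alternatives run, and that of DUSP6 was lost only without the block (adjusted p = 0.238 in limma). With shDDX18#1, FGF2 was not called without HES2 shDDX18#1 (adjusted p = 0.0567 in limma), ETV4 without H9 shDDX18#3, HES2 shDDX18#1, HES2 shDDX18#3 or HES2 shLuc (0.0669 to 0.0960), and ETV5 without the same 4 libraries (0.0862 to 0.201). With that hairpin ETV4 and ETV5 were also not called in DESeq2 (adjusted p = 0.0842 and 0.0727), and without a mean-variance trend neither they (0.0981 and 0.103) nor FGF2 (0.0657) were. With shDDX18#3, ETV1 was not called without H9 shDDX18#3 (0.126) or HES2 shDDX18#3 (0.0848), and DUSP4 not without HES2 shDDX18#3 (0.169), and neither was called without the trend (0.0640 and 0.0824). Without the block the adjusted p in limma was 0.193 for FGF2, 0.217 for ETV4 and 0.0723 for ETV5 with shDDX18#1, and 0.0617 for ETV1 and 0.0864 for DUSP4 with shDDX18#3.

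Some members not called in a single hairpin comparison passed when a shLuc library was left out, which leaves that arm with a single library. Without H9 shLuc, SPRY2 was called as a rise with shDDX18#1 (log2 change 1.58, adjusted p = 5.03e-05 in limma) and with shDDX18#3 (1.17, adjusted p = 0.00118), and with shDDX18#3 so were DUSP6 (0.76, adjusted p = 0.00913) and ETV5 (1.16, adjusted p = 0.00410), while FGF2 was called as a fall (-0.96, adjusted p = 0.00523). Without HES2 shLuc, SPRY1 was called as a fall with shDDX18#1 (-1.17, adjusted p = 0.0161 in limma) and with shDDX18#3 (-1.06, adjusted p = 0.0457), and FGFR1 likewise (-0.54, adjusted p = 0.0346, and -0.63, adjusted p = 0.0314). ETV5 with shDDX18#3 also passed without H9 shDDX18#1 (adjusted p = 0.0337 in limma) or HES2 shDDX18#1 (0.0380), and with all libraries kept under 5 other settings (0.0387 to 0.0494).

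**Figure D4:**
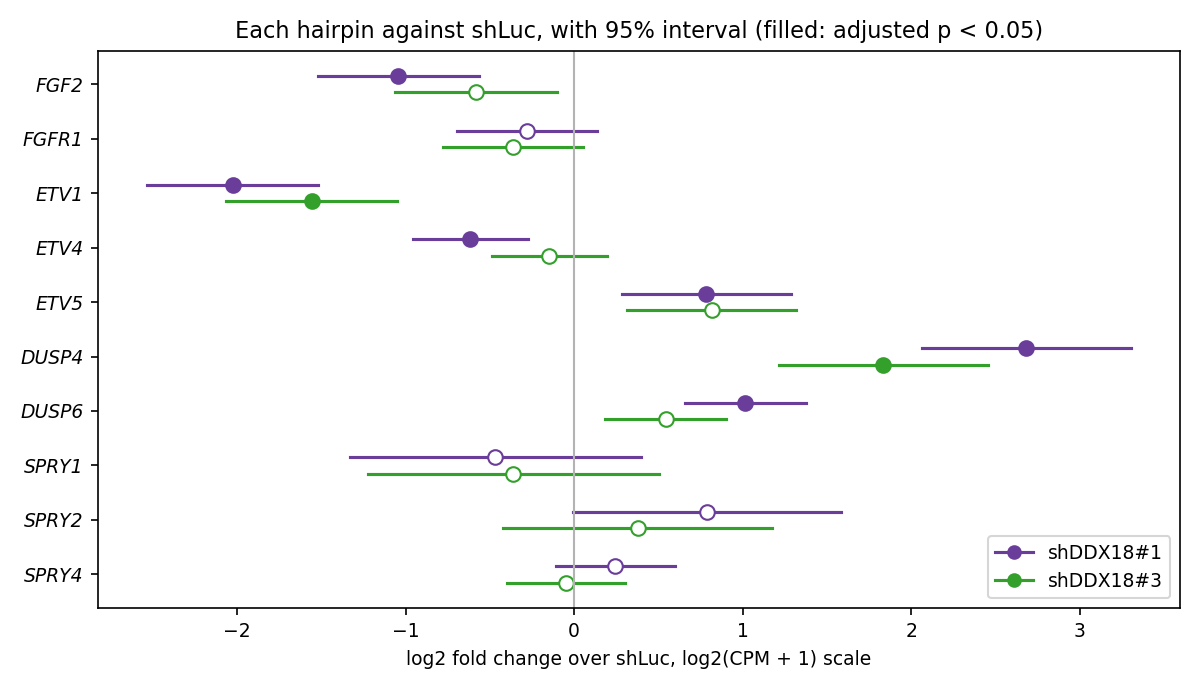
Fitted log2 change over shLuc, with its 95% interval, for each hairpin and gene on the log2(CPM + 1) scale. Purple is shDDX18#1 and green shDDX18#3, and filled symbols are called. ETV1 and DUSP4 are filled for both hairpins, and FGF2, ETV4, ETV5 and DUSP6 for shDDX18#1 alone.

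The difference between the hairpins was tested directly, and no member was called, as was no gene of the whole table in limma (0% in each direction). An unadjusted p under 0.05 in limma was reached by 2536 genes, 14.3% of those tested. edgeR called 31 genes and DESeq2 115 in this comparison. Of the members, DUSP4 (0.85 for shDDX18#1 minus shDDX18#3, 95% interval 0.23 to 1.47, adjusted p = 0.222 in limma), ETV4 (-0.47, -0.81 to -0.13, adjusted p = 0.222) and DUSP6 (0.47, 0.11 to 0.83, adjusted p = 0.237) had intervals that left out 0. DUSP4 was called in this comparison without H9 shLuc (adjusted p = 0.0110 in limma) or HES2 shLuc (0.0100). The intervals of FGF2 (-0.94 to 0.02) and ETV1 (-0.98 to 0.04) just held 0, and that of ETV5 (-0.53 to 0.47) was centred near it. In both lines DUSP4 and DUSP6 ran in the order shDDX18#1, shDDX18#3, shLuc with the highest first, an order held by 2 of the 10 genes and 13.6% of all genes. FGF2 and ETV1 ran in that order with the lowest first, again 2 of the 10 genes, beside 15.8% of all genes. DDX18 itself was lowest with shDDX18#1 in both lines, but its difference between the hairpins was not called either (-0.93, 95% interval -1.44 to -0.43, adjusted p = 0.145 in limma). Whether the members follow the amount of DDX18 left was not tested.

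Several members differed between the lines on average over the 3 hairpins, 2 of which deplete DDX18, so this is not the level of control cells alone. In shLuc alone, HES2 and H9 were at 176 and 105 CPM for DUSP6 and 204 and 167 CPM for SPRY4. They were at 142 and 185 CPM for FGF2 and 132 and 164 CPM for ETV4. With 1 shLuc library for each line, that difference was not tested. With the hairpin as a block, DUSP6 was higher in HES2 than in H9 by 1.03 on the log2 scale (SE 0.13, adjusted p = 0.0036 in limma) and SPRY4 by 0.57 (SE 0.12, adjusted p = 0.0368), while FGF2 was lower in HES2 by 0.88 (log2 difference -0.88, SE 0.17, adjusted p = 0.0236) and ETV4 by 0.53 (-0.53, SE 0.12, adjusted p = 0.0429). Of all genes tested 1.44% were higher and 3.98% lower in HES2. DUSP6 was higher in HES2 than in H9 with each of the 3 hairpins, and so was SPRY4. FGF2 and ETV4 were lower in HES2 with each of them. The values of the other 6 genes lay between -0.45 for DUSP4 (95% interval -0.95 to 0.06) and 0.83 for SPRY1 (0.13 to 1.54, adjusted p = 0.168 in limma). These calls rest on 3 library pairs, and without any 1 of the knockdown libraries FGF2, ETV4 and SPRY4 were not called, with adjusted p in limma between 0.102 and 0.407. DUSP6 was not called without H9 shDDX18#3 (0.126) or HES2 shDDX18#3 (0.129). Without the hairpin as a block none of these 4 genes was called (adjusted p 0.435 to 0.642 in limma). Without either shLuc library FGFR1, SPRY1 and SPRY2 were called as higher in HES2, with adjusted p in limma of at most 0.0240.

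Whether the effect of the knockdown differed between the lines was tested by an interaction term, and no gene in the table passed in limma (0% in each direction). An unadjusted p under 0.05 in limma was reached by 788 genes, 4.43% of those tested, so unadjusted values this small were not in excess. edgeR called 0 genes and DESeq2 13. The effect in HES2 minus that in H9 was 1.59 for SPRY2 (95% interval 0.66 to 2.53, unadjusted p = 0.0050, adjusted p = 0.977 in limma) and 1.40 for SPRY1 (0.25 to 2.56, unadjusted p = 0.0241, adjusted p near 1). Opposite directions in the lines, up in HES2 and down in H9, were seen in 2 of the 10 genes and in 5.60% of all genes tested. The intervals of the other 8 members held 0, among them DUSP4 (1.05, -0.49 to 2.59), FGF2 (-0.75, -1.75 to 0.26) and ETV1 (0.24, -0.99 to 1.46), and their width leaves sizeable differences possible.

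The other genes of the pathway were described from 7 lists that hold 120 genes, of which 101 were in the table and tested. Together 25 rose and 6 fell, beside 9.60% and 6.26% of all genes. The lists were chosen with earlier results of these data known, so these counts describe the genes listed and are no test of the pathway. The counts below are those of the comparison of all knockdown with all shLuc libraries. Without H9 shLuc the count was 3 rises and 0 falls, and without HES2 shLuc 5 rises and 0 falls, with a single control library left in each case. Over all genes 439 rose and 46 fell without H9 shLuc (2.77% called in either direction), and 185 rose and 7 fell without HES2 shLuc (1.10%).

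Of the other FGF ligands 11 of 21 were tested, 0 rose and 2 fell, with a median log2 change of -0.01. FGF19, an endocrine FGF that embryonic stem cells also express, was at 3.22 and 4.18 CPM with shDDX18#1 and shDDX18#3 in HES2 and at 1.23 and 2.27 CPM in H9, against 11.0 CPM in HES2 shLuc and 11.6 CPM in H9 shLuc, a fall by 1.79 on the log2 scale (adjusted p = 0.0154 in limma). FGF4, a ligand made by pluripotent cells, had 2 reads over the knockdown libraries and 53 reads over the shLuc libraries. Of the shLuc reads, 45 were in H9 and 8 in HES2. Each shDDX18#1 library held 1 read and each shDDX18#3 library 0. The depth-scaled ratio was 0.0249 (95% counting interval 0.00294 to 0.0947, which covers counting error only). That ratio pools the lines and rests mostly on H9 shLuc, while the HES2 counts were low throughout. FGF4 was called as a fall (adjusted p = 0.0210 in limma). FGF2, FGF4 and FGF19 thus had lower values in the knockdown libraries, with FGF2 short of the threshold. This did not hold for the ligands as a group. The other 9 tested of this list were not called, with log2 changes between -0.47 for FGF17 and 2.21 for FGF1.

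Of the other receptors, co-receptors and adaptors 13 of 16 were tested, 2 rose and 1 fell, with a median of -0.02. FGFR2, a receptor close to FGFR1, fell by 0.89 (adjusted p = 0.0104 in limma), while the adaptors SHC1 and GAB1 rose by 0.54 (adjusted p = 0.0331) and 0.75 (adjusted p = 0.0396). Of the RAS, RAF, MEK and ERK cascade all 19 listed genes were tested and 3 rose, with a median of 0.21: RPS6KA3, a kinase that ERK activates, by 1.09 (adjusted p = 0.00995 in limma), the GTPase HRAS by 0.91 (adjusted p = 0.0161) and the scaffold KSR1 by 0.72 (adjusted p = 0.0302). None of this list fell.

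Of the other negative regulators 17 of 18 were tested, 3 rose and 1 fell, with a median of 0.34. DUSP8, a phosphatase of the same family as DUSP4 that acts mainly on JNK and p38, was at 16.7 and 13.9 CPM with shDDX18#1 and shDDX18#3 in HES2 and at 31.0 and 25.9 CPM in H9, against 5.81 CPM in HES2 shLuc and 5.81 CPM in H9 shLuc, a rise of 1.68 (adjusted p = 0.00846 in limma). DUSP5, a nuclear ERK phosphatase, rose by 0.69 (adjusted p = 0.0447) and SPRED3, a relative of the sprouty proteins, by 1.09 (adjusted p = 0.0485). PEBP1, which restrains RAF, fell by 0.82 (adjusted p = 0.0144). Of the 8 DUSP genes in this list, DUSP5 and DUSP8 rose, 0 fell and 6 were not called, with log2 changes between -0.85 for DUSP2 and 0.86 for DUSP10.

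Of 16 other transcripts known to respond to ERK 15 were tested, 7 rose and 1 fell, with a median of 0.81. They included HBEGF, an EGF receptor ligand, which rose by 2.52 (adjusted p = 0.00525 in limma), the receptor EPHA2, by 1.71 (adjusted p = 0.00539), the AP-1 subunit FOSL1, by 1.53 (adjusted p = 0.0074), and the chromatin protein HMGA2, by 1.05 (adjusted p = 0.00467). The transcription factor MYC was the one that fell, by 1.11 (adjusted p = 0.014 in limma). The other 7 were not called, with log2 changes between -0.38 for MCL1 and 1.32 for PLAUR, among them EGR1 (0.73) and FOS (0.23). ETV1 changed in the opposite direction to most called transcripts of this list, and DUSP4, DUSP6 and ETV5 in the same direction. The list was chosen with earlier results of these data known, and ERK activity was not measured.

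Of capicua and other ETS factors 17 of 18 were tested and 6 rose, with a median of 0.20. CIC, which encodes capicua, was at 124 and 103 CPM with shDDX18#1 and shDDX18#3 in HES2 and at 105 and 98.2 CPM in H9, against 93.4 CPM in HES2 shLuc and 106 CPM in H9 shLuc, a log2 change of 0.10 (95% interval -0.25 to 0.45, adjusted p = 0.684 in limma). ATXN1, whose protein binds capicua, rose by 1.41 (adjusted p = 0.018). The ETS factors FLI1, ELF4 and ELK3 rose by 2.51 (adjusted p = 0.00516), 2.46 (adjusted p = 0.0100) and 1.39 (adjusted p = 0.0176). No ETS factor of this list was called as a fall. ELF2 was below both shLuc libraries in all 4 knockdown libraries, as ETV1 and 20.9% of all genes were, but was not called (log2 change -0.64, adjusted p = 0.121 in limma).

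Of the EGF family ligands and receptors, which feed the same cascade, 10 of 13 were tested, 5 rose and 1 fell, with a median of 0.92. EGFR, the EGF receptor, was at 38.6 and 29.0 CPM with shDDX18#1 and shDDX18#3 in HES2 and at 81.3 and 53.2 CPM in H9, against 8.50 CPM in HES2 shLuc and 8.03 CPM in H9 shLuc, a rise of 2.37 (adjusted p = 0.00351 in limma). ERBB4, another receptor of the family, rose by 3.33 (adjusted p = 0.0108) and its ligand NRG1 by 2.06 (adjusted p = 0.00966), and HBEGF is also in this list. ERBB3 fell by 1.64 (adjusted p = 0.019). Of the fibroblast and feeder markers 12 of 23 rose and 0 fell, among them ACTA2 (4.08, adjusted p = 0.000998 in limma), COL1A1 (3.94, adjusted p = 0.00218) and COL5A1 (3.20, adjusted p = 0.00209). Of the 14 stem cell markers 9 fell and 0 rose, among them DNMT3B (-1.95, adjusted p = 0.0029), PRDM14 (-2.13, adjusted p = 0.00542) and SOX2 (-1.82, adjusted p = 0.0154). The part of either marker list in the changes of the pathway genes was not tested.

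**Figure D5:**
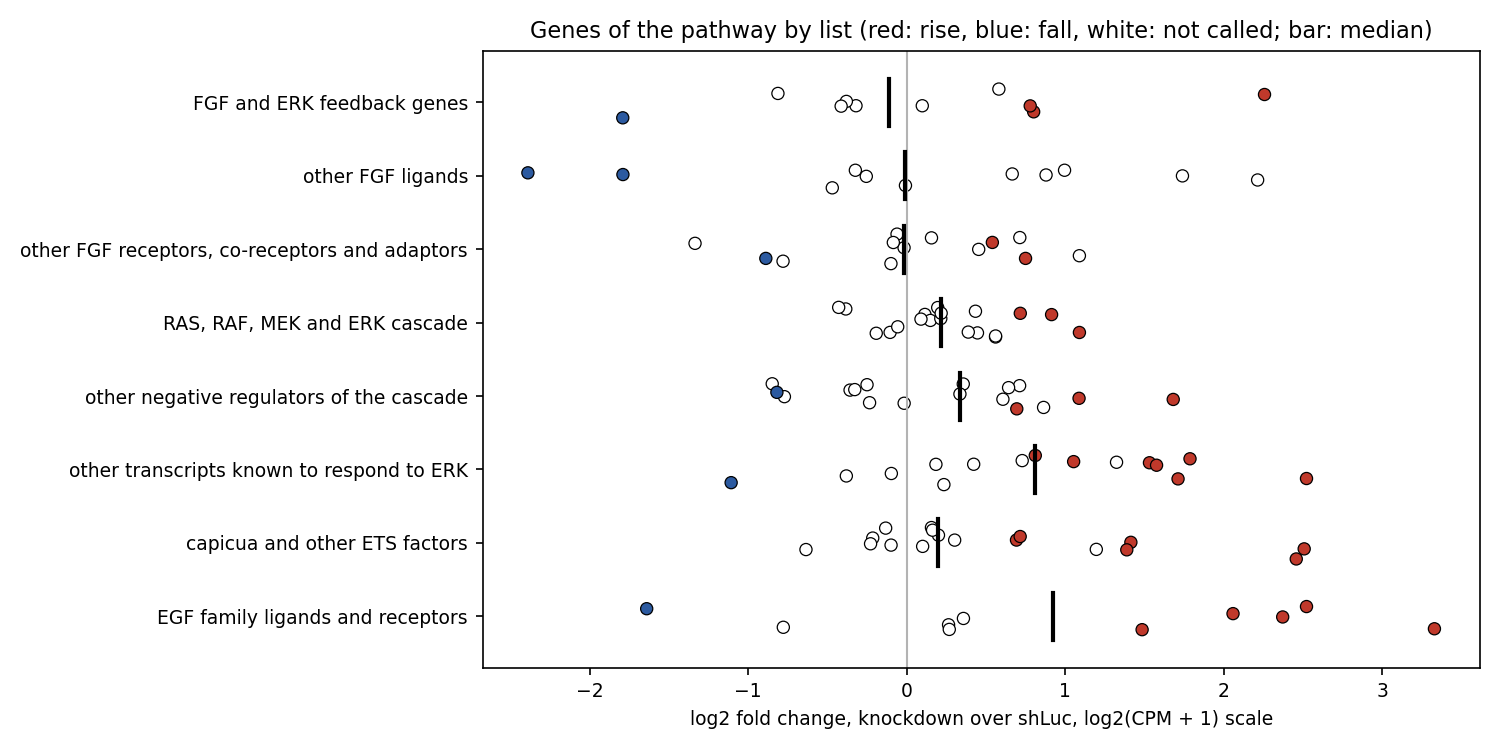
Fitted log2 change, knockdown over shLuc on the log2(CPM + 1) scale, of every tested gene of the 10 feedback genes and of the 7 pathway lists. Each point is a gene, red where called as a rise, blue as a fall and white where not called, and the black bar is the list's median. The transcripts known to respond to ERK and the EGF family have medians of 0.81 and 0.92, and the feedback genes one of -0.11.

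The genes whose log2(CPM + 1) ran most like that of a called member over the 6 libraries were found among 13241 genes with a mean of at least 3 CPM, as a description with no test. For ETV1 these were KHK (Pearson r = 0.996) and KCTD14 (r = 0.994), and for ETV5 SCUBE3 (r = 0.998) and BCORL1 (r = 0.996). For DUSP4 they were BAG3 (r = 0.997) and ERBB4 (r = 0.997), and for DUSP6 KIAA1211 (r = 0.995) and NPIPB15 (r = 0.995). With 6 libraries that share their controls such values are common, and 424 genes reached r of 0.95 with DUSP4, 255 with ETV1, 117 with ETV5 and 81 with DUSP6. The authors' deposited table of their own comparison lists log2 fold changes of 2.33 for DUSP4, 0.81 for ETV5, 0.80 for DUSP6, -1.80 for ETV1 and -0.81 for FGF2. Its false discovery rates, by the authors' deposited table, were 1.33e-08, 0.00796, 0.0105, 2.66e-10 and 0.00781 for these genes in the same order, and lay between 0.243 and 0.794 for the other 5.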

How the data were processed

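RNA-seq libraries were analysed from 6 samples: HES2 and H9 cells with shDDX18#1, shDDX18#3 or shLuc. The deposited expression table holds a signal per gene that, by the column names, the authors scaled by the trimmed mean of M-values. The submitters' processing notes name Bowtie2 2.3.4.3, SAMtools 1.9, HTSeq 0.11.2, edgeR 3.26.8 and the build hg19, without roles. Each value was a whole multiple of what 1 read is worth in its library, within 0.001 of a read, so the reads were recovered and depth is known. The deposited comparison table gives the authors' log2 fold change, log2 mean level, likelihood-ratio score, and p-value with its false discovery rate, per the file headers; the design behind it is not given in the sources used here.

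Tests used log2(CPM + 1) in limma 3.58.1 (R 4.3.3) after leaving out 161 genes that reached 1 CPM in fewer than 2 libraries, with a mean-variance trend, the line or the hairpin as a block, and Benjamini-Hochberg adjustment over all genes. The hairpins share one model, and the interaction takes the hairpins of a line as its replicates. Libraries of one line deviated together (r = 0.654, 0.363 and 0.454), and the pairing comes from the line given in the labels. The alternatives were edgeR 4.0.16 and DESeq2 1.42.0 fits of those reads, other scalings, pseudocounts (0.25 and 4), filters and fits, and leaving out each library. The fit was also run on simulated counts with an assumed spread and no difference between lines or between the hairpins against DDX18. That run therefore does not show how the fit performs on these data. Symbols came from the table for 15532 genes and from a name table for 600, and 1797 had none. Positions, exon lengths and overlaps are from GENCODE annotation of GRCh38, and no coordinate was converted. The genes and lists were chosen with earlier results of these data known. Genes named are all members, up to 4 called genes with the smallest p of each pathway list, 3 of each marker list, and the 2 most alike for each called member. Outside that rule, NUDT6 and AC024909.2 were added for overlap, and CIC and POU5F1 as a regulator and a marker. PODXL, FGF17, MYC, ERBB3, DUSP2 and DUSP10, with the genes under other observations, were added after their values were seen.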

Additional observations from a re-analysis of the deposited data

Results flagged for a closer look

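SPRY1 and SPRY2 moved in opposite directions in the lines. For SPRY2 the effect of the knockdown in HES2 minus that in H9 was 1.59 on the log2 scale, and for SPRY1 it was 1.40. The log2 change against shLuc of the same line was 1.58 and 1.17 for SPRY2 in HES2 with shDDX18#1 and shDDX18#3, and -0.01 and -0.42 in H9. For SPRY1 it was 0.47 and 0.11 in HES2, and -1.40 and -0.83 in H9. The interaction test in limma did not pass after adjustment for either gene (adjusted p = 0.977 for SPRY2 and near 1 for SPRY1), and each line has 1 shLuc library. Groups of 4 knockdown libraries were checked for a single library far from the others, and no member had one.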

How the results depend on the processing

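Over the 18 alternatives the log2 change of DUSP4 lay between 1.73 and 2.78, of ETV1 between -1.99 and -1.63, of ETV5 between 0.45 and 1.15, of DUSP6 between 0.57 and 0.99 and of FGF2 between -1.19 and -0.44, and none changed sign. FGF2 was called in 4 of them: total-read scaling (adjusted p = 0.0451 in limma), edgeR (0.0490), DESeq2 (0.0285) and without H9 shDDX18#3 (0.0310). Between knockdown and shLuc the count of rises was 1 without the trend and the count of falls 2 with total-read scaling, edgeR and DESeq2. With shDDX18#1 the rises numbered 1 without the replicate block, and the falls 1 without the trend and 1 without the block. With shDDX18#3 the rises numbered 2 with a pseudocount of 0.25, a filter of 5 CPM, DESeq2 size factors, a robust prior or edgeR, and rises and falls were 0 without the trend or the block. For HES2 against H9 the rises numbered 1 with DESeq2 and the falls 1 with a pseudocount of 4, total-read or quantile scaling or DESeq2, and both were 0 without the trend or without the block.

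Leaving out each library in turn gave 0 to 3 rises and 0 to 2 falls for knockdown, 2 to 4 and 1 to 4 for shDDX18#1, 0 to 4 and 0 to 3 for shDDX18#3, 0 to 1 and 0 to 0 between the hairpins, 0 to 0 for the interaction, 0 to 5 and 0 to 2 between the lines, and 3 to 26 and 0 to 8 for the pathway lists. A lone remaining library of an arm was assumed to vary like the others. Signs turned only for uncalled values, given here with the range over the single libraries left out. For knockdown, SPRY1 lay between -1.11 and 0.29 (without H9 shLuc), SPRY2 between -0.22 (without HES2 shLuc) and 1.38, and SPRY4 between -0.11 (without HES2 shLuc) and 0.31. For shDDX18#1, FGFR1 lay between -0.57 and 0.015 (without H9 shDDX18#1), SPRY1 between -1.17 and 0.23 (without H9 shDDX18#1 or H9 shLuc) and SPRY2 between -0.0097 (without HES2 shLuc) and 1.58. For shDDX18#3, ETV4 lay between -0.31 and 0.021 (without HES2 shLuc), SPRY1 between -1.06 and 0.34 (without H9 shLuc), SPRY2 between -0.42 (without HES2 shLuc; -0.02 without HES2 shDDX18#3) and 1.17, and SPRY4 between -0.26 and 0.16 (without H9 shLuc; 0.08 without H9 shDDX18#3). Between hairpins, FGFR1 lay between -0.21 (without HES2 shDDX18#1) and 0.38, ETV5 between -0.31 and 0.24 (without H9 shDDX18#1; 0.04 without HES2 shDDX18#3), and SPRY1 between -0.80 and 0.59 (without H9 shDDX18#1). With DESeq2 the same difference was 0.0081 for ETV5 and 0.020 for SPRY1, and with edgeR 0.048 for SPRY1. The interaction of ETV1 lay between -0.17 (without HES2 shDDX18#3) and 0.65. Between lines, ETV1 was -0.10 without either shDDX18#3 library, and ETV5 lay between -0.23 and 0.18 (without either shLuc library) and was 0.080 with total reads. The causes were not tested. The interaction could not be fitted without the block or without either shLuc library. With 2 shLuc libraries, 1 a line, the control level rests on single libraries, and at these depths 1 read is worth up to 0.408 CPM.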

Other observations

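The FGF genes given here were chosen after their values were seen. FGF1, a ligand for all FGF receptors, was at 0.644 and 7.52 CPM with shDDX18#1 and shDDX18#3 in HES2 and at 22.5 and 30.1 CPM in H9, against 1.56 CPM in HES2 shLuc and 0.831 CPM in H9 shLuc (log2 change 2.21, adjusted p = 0.103 in limma). FGF14, an intracellular member of the family, was at 0.644 and 0.278 CPM with shDDX18#1 and shDDX18#3 in HES2, which are 2 reads and 1 read, and at 48.2 and 9.40 CPM in H9, against 0 CPM in HES2 shLuc and 1.94 CPM in H9 shLuc (log2 change 1.74, adjusted p = 0.128). FGFR3 took 21.4% and 18.6% of the summed FGFR1 to FGFR4 transcripts per exon base with shDDX18#1 and shDDX18#3 in HES2 and 28.6% and 24.1% in H9, against 8.46% in HES2 shLuc and 15.4% in H9 shLuc. FGFR2 took 5.64% and 6.62% in the HES2 knockdown libraries and 12.6% and 11.4% in the H9 ones, against 12.2% in HES2 shLuc and 14.5% in H9 shLuc. FGFR3 itself missed the threshold (log2 change 0.71, adjusted p = 0.0833 in limma), as did FGFR4 (-0.78, adjusted p = 0.0514), so the shift is seen in shares in which FGFR2 alone was called.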
